A study of Mus musculus with 24 samples.

Results

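The mammalian circadian clock was followed through 10 genes, Arntl (also called Bmal1), Clock, Per1, Per2, Per3, Cry1, Cry2, Nr1d1, Nr1d2 and Dbp. They were chosen by name as core clock and clock output genes, and each symbol matched 1 Ensembl gene of the 37991 counted. RNA was measured by directional, ribosome-depleted RNA sequencing in 24 mammary samples of female mice, with 3 samples of each genotype, PyMT and FVB, at ages of 6, 8, 10 and 12 weeks. The 3 samples of a group came from separate mice. PyMT mice are F1 females, heterozygous for the polyoma middle T antigen under the MMTV promoter, from transgenic males and FVB females. This promoter is known to drive expression in mammary epithelium, and expression of the transgene was not analysed here. FVB females without the transgene gave normal mammary glands as controls, and both genotypes share the FVB background. By age, PyMT tissue was staged as hyperplasia (6 weeks), adenoma or mammary intraepithelial neoplasia (8 weeks), early carcinoma (10 weeks) and then late carcinoma (12 weeks). The paper also had a pathologist examine the tumors, who saw typical features of the stages. By its estimate carcinoma samples were in general mostly tumor cells. The hour of tissue collection is not in the labels, so each clock gene is given for single libraries as well as for groups. Each library is bulk tissue, in which fewer cells of a type and less RNA per cell cannot be told apart.

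The clock is a feedback loop of transcription. The proteins of Arntl and Clock bind E-boxes together and switch on the Per and Cry genes, whose proteins return to block them. In the other arm, the nuclear receptors of Nr1d1 and Nr1d2 (REV-ERB alpha and beta) repress Arntl through RORE elements, which ROR receptors activate. Dbp, a PAR bZIP factor whose gene is itself switched on through E-boxes, binds D-boxes in the genes it drives. RNA of Arntl and RNA of Nr1d1 and Dbp peak at opposite times of day in most tissues, and Clock RNA varies little.

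These elements can be read in the promoters of the clock genes. RefSeq promoters of build GRCm38.p6, from 250 bases before to 50 after a start, were found for 9 of the 10 genes, with 13 starts in all. Both strands were searched. The E-box was read as CACGTG. Its variant was read as CACGTT, which appears as AACGTG where the match lies on the opposite strand of the gene. The D-box was read as TTATGTAA or TTACGTAA, and the CRE as TGACGTCA. The RORE was read as TAGGTCA or TGGGTCA with an adenine 3 bases ahead of the first letter. None of these motifs contains another. Capitals below mark the match, the base before the start is -1, and every sequence is written 5′ to 3′ on the strand of its gene. Per3 is shown because it held D-boxes, the element bound by Dbp, and was among the genes lowest in PyMT relative to FVB. Its stretch, chr4:151044796-151044885 on the minus strand, has a D-box beginning at -205 and another at -158.
Per3: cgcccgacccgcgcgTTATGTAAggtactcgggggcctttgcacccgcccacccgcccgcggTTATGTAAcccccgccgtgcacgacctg
The next 4 show E-boxes or the E-box variant, read by the Arntl and Clock proteins, in genes whose RNA was lower in PyMT (Nr1d1 and Cry2), higher (Cry1) or neither (Per1). They lie at chr11:98775378-98775437 on the minus strand for Nr1d1, chr10:85185095-85185154 on the minus strand for Cry1, chr11:69098753-69098812 on the plus strand for Per1 and chr2:92434206-92434265 on the minus strand for Cry2.
Nr1d1: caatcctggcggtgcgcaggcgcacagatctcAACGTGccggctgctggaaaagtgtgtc
Cry1: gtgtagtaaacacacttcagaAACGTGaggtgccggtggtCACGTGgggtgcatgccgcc
Per1: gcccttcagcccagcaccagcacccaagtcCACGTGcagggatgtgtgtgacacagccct
Cry2: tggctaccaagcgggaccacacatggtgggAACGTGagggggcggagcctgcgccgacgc
The last is the RORE of Arntl, through which Nr1d1 and Nr1d2 act, at chr7:113207528-113207557 on the plus strand, where the match begins 28 bases into the transcript of the second listed start.
Arntl: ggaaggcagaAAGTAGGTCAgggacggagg
The variant began at -28 in Nr1d1, at -79 in Cry1 and at -166 in Cry2, and the E-box at -60 in Cry1 and at -166 in Per1. Of all 32851 promoters of the same length, 7.15% held the E-box, 4.68% its variant, 1.06% a D-box, 1.60% a RORE and 1.79% a CRE. Of the 9 clock genes, each counted over all its starts, 2 held the E-box, 3 its variant, 1 a D-box, 1 a RORE and 0 a CRE. The shares are of single promoters, so a gene with several starts had more bases searched. The windows of Clock, Nr1d2 and Dbp held none of these letters. A match describes the letters in the window and says nothing about binding in these samples.

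All 10 genes were above the count minimum and entered every fit, together with 14918 genes in all. Total counts ran from 6969375 to 13516601 per library, with a median of 8280269.5. A histogram of gene counts had a local peak well above 1 count in 13 libraries (6 PyMT, 7 FVB), at 8 to 25 counts. The place of this peak is called the packet size here, and low counts of these libraries may hold fewer independent molecules than reads. Summed markers showed epithelium in every library, at 4272 to 18558 normalized counts in FVB and 20119 to 37964 in PyMT over 7 genes. Markers of other cell types also differed, and they are set beside the clock genes further on.

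Normalized counts, which are counts divided by DESeq2's size factor of the library, are given for every library or as the lowest, median and highest of 12. Log2 fold changes are PyMT over FVB from edgeR's quasi-likelihood fits with TMM scaling, ± their standard error, and p-values were adjusted by Benjamini-Hochberg over all 14918 genes. A gene passed the test at an adjusted p under 0.05, and was a differentially expressed gene (DEG) in the study's sense if its fold change was also above 2.

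In the fit of all 24 libraries with week as a factor, 8 of the 10 clock genes passed the test, 7 lower and 1 higher in PyMT, where 51.1% of all genes passed, 27.5% lower and 23.6% higher. Nr1d1, Dbp and Per3 had the largest differences, and these 3 and Cry2 were DEGs, against 25.7% of all genes. Per2, Nr1d2 and Clock were lower by less, Cry1 was higher, and Arntl and Per1 did not pass. The median log2 fold change of the 10 genes was -0.87, beside -0.03 over all genes tested. Over 12 PyMT and 12 FVB libraries, the values of Nr1d1 and Per3 did not overlap, which held for 11.9% of all genes (7.22% with PyMT lower and 4.67% with PyMT higher).

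**Figure D1:**
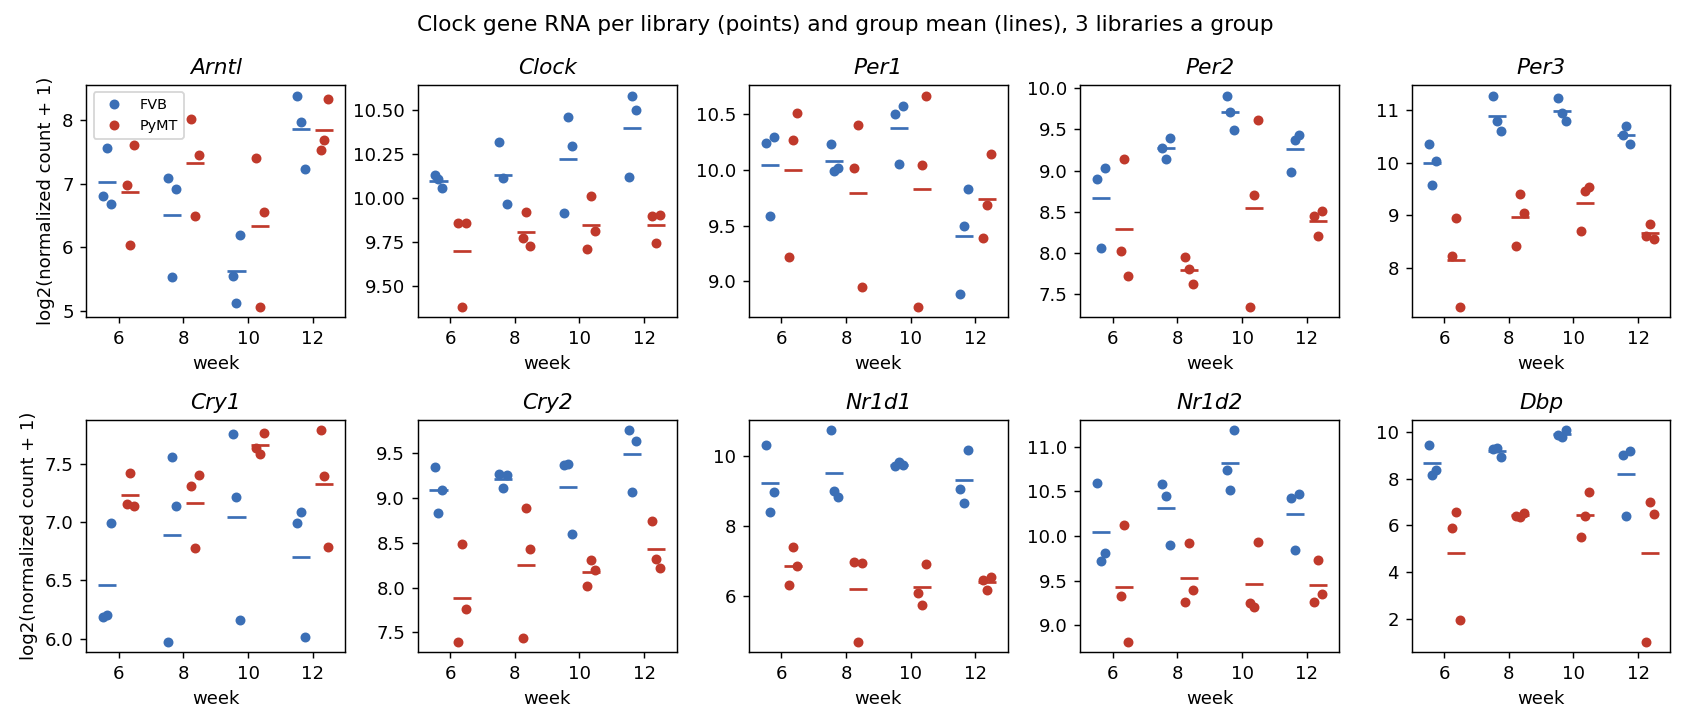
RNA of the 10 clock genes in each of the 24 libraries, as log2(normalized count + 1) on the y axis against week on the x axis, FVB in blue and PyMT in red, with lines at the mean of the 3 log2 values. The 12 PyMT points of Nr1d1 and of Per3 lie below all FVB points, those of Arntl and Per1 are mixed, and Dbp has 2 PyMT libraries far below the rest.

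**Figure D2:**
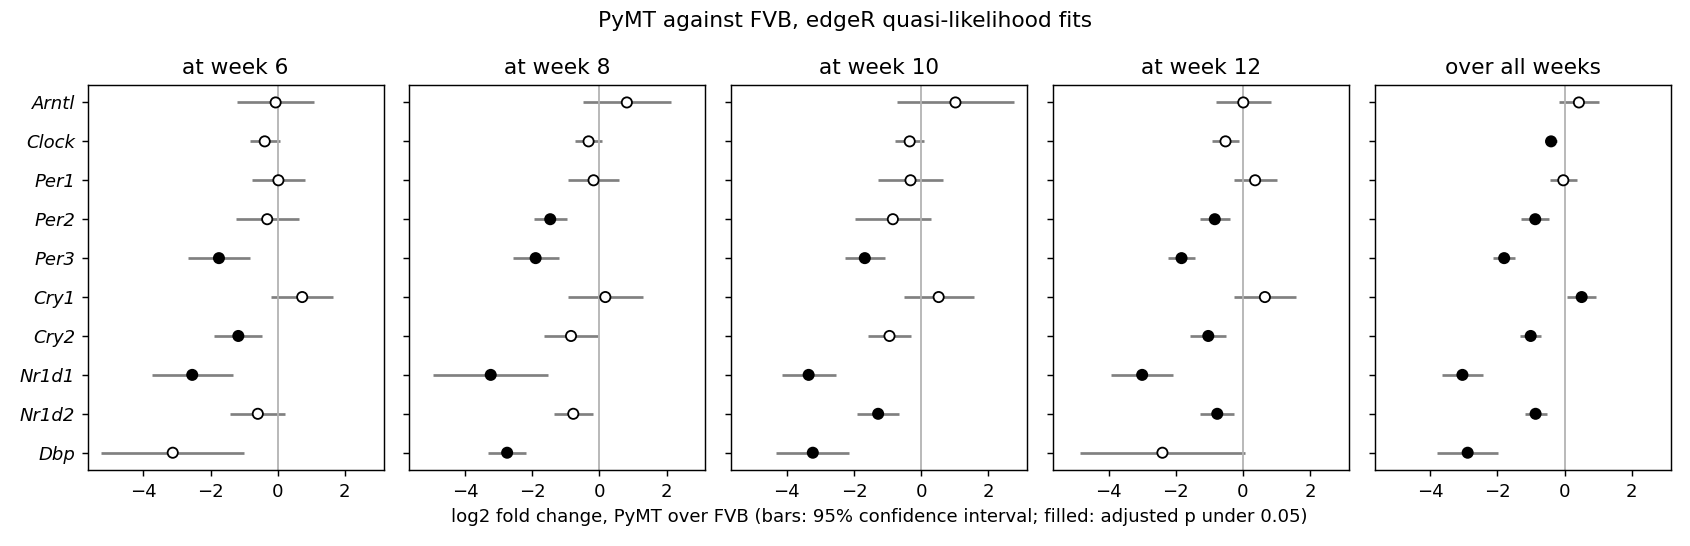
Log2 fold change of PyMT over FVB on the x axis for the 10 genes at each week and over all weeks, from edgeR's quasi-likelihood fits, with bars for the 95% confidence interval and filled points for an adjusted p under 0.05. Per3 and Nr1d1 are filled at every week, and Arntl and Per1 at none.

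The REV-ERB genes were both lower in PyMT over all weeks, Nr1d1 by far more than Nr1d2. Nr1d1 (ENSMUSG00000020889, chr11:98629246-98636647 on the minus strand in mm9) encodes REV-ERB alpha, a nuclear receptor that represses Arntl. At week 6 its FVB libraries held 1260, 335 and 495 normalized counts and its PyMT libraries 79.2, 169 and 115. At week 8 they held 1682, 509 and 452 in FVB and 126, 25.3 and 122 in PyMT. FVB replicate 1 was the highest of its group at both weeks, and no PyMT library reached the lowest FVB library. At week 10 the FVB values were 827, 897 and 847 and the PyMT values 67.6, 53.5 and 120. At week 12 they were 533, 405 and 1144 in FVB and 87.4, 71.6 and 92.4 in PyMT. The groups were apart at every week, and the 12 FVB libraries (335 to 1682, median 680) all lay above the 12 PyMT libraries (25.3 to 169, median 89.9). Over all weeks the log2 fold change was -3.04 ± 0.30, which is 8.23-fold lower (edgeR quasi-likelihood test, Benjamini-Hochberg adjusted p = 7.7e-09). From week 6 to week 12 the single-week values were -2.54, -3.24, -3.35 and -3.00, and Nr1d1 passed at all 4 weeks (edgeR quasi-likelihood test, Benjamini-Hochberg adjusted p = 0.0184, 0.0304, 0.00085 and 0.0013).

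Nr1d1 shares 263 of its 3124 exonic bases with Thra, the thyroid hormone receptor alpha gene on the opposite strand. The libraries keep strand, but whether HTSeq used it is not given in the sources used here, and without strand the reads of the shared bases cannot be told apart. Thra had a mean of 902 normalized counts in FVB and 246 in PyMT, a log2 fold change of -1.87 ± 0.09 over all weeks (edgeR quasi-likelihood test, Benjamini-Hochberg adjusted p = 2.7e-13). The part of Thra reads in the Nr1d1 count was not tested.

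Nr1d2 (ENSMUSG00000021775, chr14:19036568-19071641 on the minus strand in mm9) encodes REV-ERB beta, the close relative of REV-ERB alpha. Its 12 FVB libraries ran from 842 to 2322 normalized counts with a median of 1407, and its 12 PyMT libraries from 450 to 1117 with a median of 648. The ranges overlapped, and PyMT replicate 2 of week 6 was the only PyMT library above 1000. Over all weeks the log2 fold change was -0.86 ± 0.16 (edgeR quasi-likelihood test, Benjamini-Hochberg adjusted p = 6.8e-05). Nr1d2 was thus 1.82-fold lower beside 8.23-fold lower Nr1d1, a difference between genes that was not tested. Nr1d2 passed at week 10, where FVB held 1711, 1466 and 2322 and PyMT 606, 590 and 979, and at week 12, where FVB held 1374, 915 and 1420 and PyMT 614, 847 and 653. It did not pass at week 6 (log2 fold change -0.59) or week 8 (-0.78).

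Dbp (ENSMUSG00000059824, chr7:52960458-52965525 on the plus strand in mm9), the PAR bZIP output factor, was the most uneven of the 10 genes in PyMT. Its FVB libraries held 694, 282 and 331 normalized counts at week 6 and 623, 637 and 492 at week 8. They held 944, 892 and 1080 at week 10 and 522, 84.4 and 582 at week 12. Replicate 2 of week 12 was the only FVB library under 282, and it fell within the PyMT range. The PyMT libraries held 57.9, 94.9 and 2.84 at week 6 and 84.0, 81.6 and 92.3 at week 8. They held 44.5, 83.8 and 171 at week 10 and 1.03, 127 and 88.7 at week 12. The low PyMT values rest on 5 counts (week 6, replicate 3) and 1 count (week 12, replicate 1), in libraries whose packet sizes were 13 and 12. All other PyMT libraries had between 50 and 200 counts of Dbp.

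Over all weeks Dbp was 7.39-fold lower in PyMT, with a log2 fold change of -2.89 ± 0.44 (edgeR quasi-likelihood test, Benjamini-Hochberg adjusted p = 6.7e-06). At week 8 it was -2.75 ± 0.25, and at week 10 it was -3.23 ± 0.47, and both passed (edgeR quasi-likelihood test, Benjamini-Hochberg adjusted p = 0.0028 and 0.0034). At week 6 the log2 fold change was -3.12 ± 0.93 and at week 12 it was -2.39 ± 1.07, and neither passed (edgeR quasi-likelihood test, Benjamini-Hochberg adjusted p = 0.0671 and 0.133). These are the weeks with the libraries of 5 and 1 counts, and their standard errors were the widest of the 4 weeks for Dbp. Week 12 also holds the FVB library far below its group, replicate 2 at 84.4 normalized counts. Leaving out single libraries of week 12 gave values from -3.06 to -1.82. Of 15 alternative fits, Dbp passed in 7 at week 6 and in 2 at week 12. Without PyMT replicate 3 the week 6 value was -2.47 (edgeR quasi-likelihood test, Benjamini-Hochberg adjusted p = 0.0392), and with every count divided by its library's packet size both weeks passed (adjusted p = 0.0147 and 0.0349 in the same test). Dbp shares 491 of its 2945 exonic bases with Sphk2 on the opposite strand, a sphingosine kinase gene whose level was 303 in FVB and 329 in PyMT and did not pass.

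The period genes encode the repressors that act with the cryptochromes, of which Per3 and Per2 were lower in PyMT over all weeks and Per1 did not pass. Per3 (ENSMUSG00000028957, chr4:150377761-150418774 on the minus strand in mm9) was lower in PyMT at every week. At week 6 its FVB libraries held 1315, 765 and 1054 normalized counts and its PyMT libraries 300, 496 and 152. At week 8 the FVB values were 2487, 1776 and 1554 and the PyMT values 341, 682 and 531. At week 10 they were 2397, 1978 and 1782 in FVB and 415.5, 704 and 744 in PyMT. The lowest FVB library of all weeks, replicate 2 of week 6 at 765, stood just above the highest PyMT library, replicate 3 of week 10 at 744. At week 12 the FVB values were 1485, 1672 and 1312 and the PyMT values 390, 454 and 376. Over all weeks Per3 was 3.48-fold lower, with a log2 fold change of -1.80 ± 0.16 (edgeR quasi-likelihood test, Benjamini-Hochberg adjusted p = 1.0e-09). It lay between -1.68 and -1.90 at the 4 weeks, a narrower range than that of Nr1d1, the other gene that passed at every week (edgeR quasi-likelihood test, Benjamini-Hochberg adjusted p = 0.028, 0.0097, 0.0044 and 0.00036 from week 6 to week 12).

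Per2 (ENSMUSG00000055866, chr1:93312561-93355907 on the minus strand in mm9) ran from 265 to 962 normalized counts in FVB (median 639) and from 162 to 780 in PyMT (median 277). At week 8 the FVB libraries held 617, 563 and 674 and the PyMT libraries 247, 222 and 197, the clearest gap of the 4 weeks. At week 10 the PyMT values spread from 162 to 780 beside 962, 839 and 721 in FVB, and the groups overlapped. The log2 fold change was -0.87 ± 0.20 over all weeks, -1.46 ± 0.21 at week 8 and -0.83 ± 0.19 at week 12, and these 3 passed (edgeR quasi-likelihood test, Benjamini-Hochberg adjusted p = 0.00091, 0.0077 and 0.0143). At week 6 it was -0.31 and at week 10 it was -0.84, and neither passed.

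Per1 (ENSMUSG00000020893, chr11:68908719-68923462 on the plus strand in mm9) did not pass in any comparison. It ran from 474 to 1515 normalized counts in FVB (median 1047) and from 436 to 1621 in PyMT (median 1046). The log2 fold change over all weeks was -0.04, with a 95% confidence interval from -0.44 to 0.36 (edgeR quasi-likelihood test, Benjamini-Hochberg adjusted p = 0.892). Scaled by total count alone it was 0.26, where the median of all genes also moved from -0.03 to 0.26. The PyMT libraries at weeks 8 and 10 held 1036, 1349 and 495, then 436, 1055 and 1621, a wider spread than the 1197, 1014 and 1034, then 1445, 1059 and 1515 of FVB. Replicate 1 of week 10 was the lowest PyMT library for both Per1 and Per2.

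The cryptochromes, which bind and block the Arntl and Clock proteins, parted in direction. Cry2 (ENSMUSG00000068742, chr2:92243803-92274200 on the minus strand in mm9) ran from 388 to 865 normalized counts in FVB (median 614) and from 167 to 473 in PyMT (median 306). The groups did not overlap at any of the 4 weeks, although the full ranges did, with FVB replicate 2 of week 6 at 456 and FVB replicate 3 of week 10 at 388 below PyMT replicate 2 of week 8 at 473. Over all weeks the log2 fold change was -1.01 ± 0.15 (edgeR quasi-likelihood test, Benjamini-Hochberg adjusted p = 4.5e-06). Cry2 passed at week 6 (-1.17 ± 0.31) and week 12 (-1.03 ± 0.23), and at week 8 (-0.84) and week 10 (-0.94) it did not (edgeR quasi-likelihood test, Benjamini-Hochberg adjusted p = 0.0465, 0.0132, 0.154 and 0.0538). Its overlap with the D930015M05Rik gene spans 295 of 6320 exonic bases, and that gene averaged under 1 normalized count in both genotypes.

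Cry1 (ENSMUSG00000020038, chr10:84594447-84647799 on the minus strand in mm9) was the only one of the 10 genes higher in PyMT past the test. It ran from 61.8 to 216 normalized counts in FVB (median 126) and from 109 to 220 in PyMT (median 168), and 5 FVB libraries lay below the lowest PyMT library. Over all weeks it was higher, with a log2 fold change of 0.51 ± 0.21, 1.42-fold (edgeR quasi-likelihood test, Benjamini-Hochberg adjusted p = 0.0465). The call was close to the threshold and was lost when any 1 of 16 of the 24 libraries was left out (adjusted p up to 0.0827 in the same test). The call was kept when the library left out was FVB replicate 3 of week 6, FVB replicate 2 or 3 or PyMT replicate 2 of week 8, FVB replicate 1 or PyMT replicate 2 of week 10, or FVB replicate 2 or PyMT replicate 3 of week 12. At single weeks the log2 fold change was 0.73, 0.18, 0.52 and 0.66 from week 6 to week 12, and none passed. At week 6 the FVB libraries at 71.9, 72.5 and 126 lay below the PyMT libraries at 142, 170 and 140.

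Of the activators, Arntl did not pass in any comparison by edgeR with TMM scaling and Clock was slightly lower in PyMT over all weeks. Arntl (ENSMUSG00000055116, chr7:120350979-120457636 on the plus strand in mm9) encodes BMAL1, the partner that the loop needs to run. In FVB its libraries held 111, 189 and 102 normalized counts at week 6 and 135, 45.4 and 120 at week 8. They held 46.0, 34.1 and 72.0 at week 10 and 334, 250 and 149 at week 12. All 3 FVB libraries of week 10 were below all 3 of week 12, and Arntl covered a 9.79-fold range over the 12 FVB libraries. In PyMT the values were 126, 64.7 and 194 at week 6 and 258, 89.1 and 174 at week 8. They were 169, 32.5 and 93.0 at week 10 and 184, 205 and 323 at week 12, a 9.93-fold range over 12 libraries. The genotypes overlapped at every week. The log2 fold change over all weeks was 0.43, with a 95% confidence interval from -0.16 to 1.02 (edgeR quasi-likelihood test, Benjamini-Hochberg adjusted p = 0.221). At single weeks it was -0.06, 0.82, 1.02 and 0.01, and none passed. Scaled by total count alone, which moved the median of all genes from -0.03 to 0.26, the value was 0.74 (edgeR quasi-likelihood test, Benjamini-Hochberg adjusted p = 0.0285). With limma's voom and sample quality weights it was 0.58 and also passed (Benjamini-Hochberg adjusted p = 0.0437).

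Clock (ENSMUSG00000029238, chr5:76639992-76733817 on the minus strand in mm9), the partner of Arntl, was the steadiest of the 10 genes. It ran from 964 to 1531 normalized counts in FVB (median 1115) and from 665 to 1032 in PyMT (median 911), a coefficient of variation of 15.3% and 10.3%. The log2 fold change over all weeks was small, at -0.40 ± 0.08, or 1.32-fold lower (edgeR quasi-likelihood test, Benjamini-Hochberg adjusted p = 0.00019). At the 4 weeks it lay between -0.32 and -0.52, and none passed. Scaling by total count alone moved the median of all genes from -0.03 to 0.26, and there the value for Clock was -0.11 and no longer passed (edgeR quasi-likelihood test, Benjamini-Hochberg adjusted p = 0.375). Under that scaling 2 clock genes were higher and 6 lower, in place of 1 and 7, and with RLE size factors 0 were higher and 7 lower, since Cry1 no longer passed (edgeR quasi-likelihood test, Benjamini-Hochberg adjusted p = 0.0512). Of all 14918 genes, 8297 passed with total-count scaling and 7587 with RLE size factors, beside 7620 with TMM.

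Week by week, 3 of the 10 genes passed in the week 6 fit, where 11.9% of all genes did (7.06% lower, 4.82% higher). In the week 8 fit 4 passed, beside 11.2% of all genes (6.86% lower, 4.34% higher). Week 10 had 4, beside 16.2% (9.91% lower, 6.27% higher), and week 12 had 5, beside 27.8% (15.3% lower, 12.5% higher). Every one of these clock genes was lower in PyMT. As DEGs they were 3, 4, 4 and 3, beside 10%, 9.95%, 13.9% and 20.7% of all genes. Per3 and Nr1d1 passed at 4 of 4 weeks, Per2, Cry2, Nr1d2 and Dbp at 2 each, and Arntl, Clock, Per1 and Cry1 at 0. The share of all genes that passed at several weeks was not counted, so this recurrence has no share to be read against. PyMT and FVB did not overlap for 6 of the 10 genes in week 6, 5 lower and Cry1 higher in PyMT, beside 36.6% of all genes (20.4% lower, 16.2% higher). In week 8 there were 6, all lower, beside 40.2% (21.7% lower, 18.4% higher). Week 10 had 5, all lower, beside 40.5% (21.6% lower, 18.9% higher), and week 12 had 6, all lower, beside 46.7% (25.2% lower, 21.5% higher).

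Several of the week values rested on single libraries. At week 6, Per3 no longer passed without FVB replicate 1 or 3 or PyMT replicate 1 or 3 (adjusted p from 0.0583 to 0.107). Cry2 was lost there without any library other than PyMT replicate 2 (0.0789 to 0.150), and Nr1d1 without PyMT replicate 1 or 3 (0.0758 to 0.0769). At week 8, Nr1d1 was lost without FVB replicate 2 or PyMT replicate 1 or 3 (0.0613 to 0.0901). At week 10, Nr1d2 was lost without PyMT replicate 1 or 2 (0.0716 to 0.0812), and Cry2 passed without FVB replicate 3 (0.00512). At week 12, Per2 was lost without FVB replicate 3 or PyMT replicate 2 (0.0588 to 0.0599), Cry2 without PyMT replicate 2 or 3 (0.0552 to 0.0580) and Nr1d2 without FVB replicate 1 or 3 or PyMT replicate 1 or 3 (0.0786 to 0.111), while Clock passed without FVB replicate 1 (0.022). These adjusted p-values come from the same edgeR quasi-likelihood test with Benjamini-Hochberg adjustment. Over all weeks no single library changed the call of Nr1d1, Dbp, Per3, Cry2, Per2, Nr1d2 or Clock.

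Whether the clock genes differed between the weeks was tested in a fit of the 8 groups. Of the 10 genes, 0 passed among FVB weeks, 0 among PyMT weeks and 0 for a change of the PyMT against FVB difference over the weeks (edgeR's quasi-likelihood F test, Benjamini-Hochberg adjustment). At an unadjusted p under 0.05 there were 2, 1 and 0. Of all genes, 0.0067%, 0% and 0% passed, which is 1, 0 and 0 genes, and 635, 597 and 494 had an unadjusted p under 0.05. DESeq2 called 46, 89 and 17 of all genes in the same contrasts and none of the 10 clock genes. The 2 genes under an unadjusted 0.05 among FVB weeks were Arntl and Per3, and the 1 among PyMT weeks was Per3. The smallest adjusted p of the clock genes was that of Arntl among FVB weeks, at 0.879 in the edgeR quasi-likelihood F test.

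Levels could be compared between genes once divided by exon length. In FVB the order of mean normalized counts per kb was Nr1d2 (272 ± 84.5, SD, n = 12), Nr1d1 (250.3 ± 131.6), Dbp (203 ± 97.2), Per1 (186 ± 53.6), Per3 (169.8 ± 52.5), Clock (136 ± 20.8), Per2 (107 ± 30.8), Cry2 (96.9 ± 21.0), Arntl (45.2 ± 30.5) and Cry1 (39.2 ± 16.9). Every pair of neighbours in that order differed by less than the SD of at least 1 of them, except Cry2 and Arntl. In PyMT it was Per1 (176 ± 69.2, SD, n = 12), Nr1d2 (146 ± 39.9), Clock (101 ± 10.4), Per2 (58.0 ± 30.5), Cry1 (55.0 ± 12.3), Arntl (54.4 ± 28.4), Per3 (48.4 ± 18.4), Cry2 (48.0 ± 14.7), Nr1d1 (30.1 ± 12.4) and Dbp (26.3 ± 16.1). Per2, Cry1, Arntl, Per3 and Cry2 lay within their spread of each other, and the steps wider than the SD of either neighbour were those from Nr1d2 to Clock, from Clock to Per2 and from Cry2 to Nr1d1. Nr1d1 went from rank 2 to rank 9 and Dbp from rank 3 to rank 10.

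**Figure D3:**
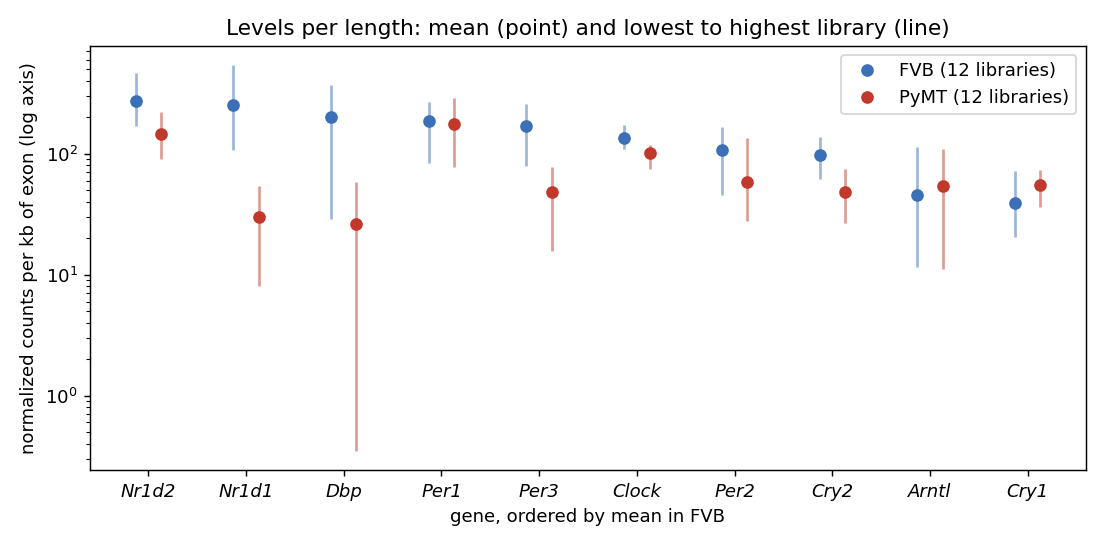
Normalized counts per kb of exon, on a log axis, for the 10 genes ordered along the x axis by their FVB mean, with points at the mean of 12 libraries and lines from the lowest to the highest library. FVB (blue) and PyMT (red) part most at Nr1d1, Dbp and Per3, and the lowest PyMT library of Dbp is at 0.349 per kb.

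Since Arntl peaks opposite to Per, Nr1d and Dbp RNA in most tissues, the relation of Arntl to the other 9 genes was computed within each genotype over 12 libraries, 18 relations in all, on log2(normalized count + 1). The strongest was that with Per1 in FVB, where Pearson's r was -0.72 (two-sided permutation test with 100000 resamples, p = 0.0066, Benjamini-Hochberg adjusted p = 0.119) and Spearman's rho -0.69 (p = 0.0157, adjusted p = 0.141). With Dbp in FVB r was -0.63 (permutation p = 0.0221, adjusted p = 0.199) and rho -0.71 (p = 0.0121, adjusted p = 0.141). None of the 18 passed the adjustment. Without the 2 libraries farthest from the median of Arntl, r was -0.72 for Per1 and -0.74 for Dbp over the other 10. On deviations from the mean of each week, r was -0.29 for Per1 (exact permutation test within weeks, p = 0.404) and -0.17 for Dbp (exact p = 0.721). Both were weaker and still negative, and 3 libraries a week cannot decide whether the relations in FVB hold within weeks.

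In PyMT the relation of Arntl to Per3 was r = -0.57 (permutation p = 0.0535, adjusted p = 0.321) and rho = -0.65 (p = 0.0258, adjusted p = 0.155), and r was -0.50 without the 2 farthest libraries. On deviations from week means it was -0.79 (exact permutation test within weeks, p = 0.0185, adjusted p = 0.167). For Cry2 in PyMT r was -0.30 (permutation p = 0.347, adjusted p = 0.529) and, on deviations, -0.68 (exact p = 0.0147, adjusted p = 0.167). Dbp and Nr1d1 in PyMT had r of -0.25 and 0.27 with Arntl. Arntl was negatively related to 7 of the other 9 genes in each genotype, Clock and Cry2 being positive in FVB (0.16 and 0.18) and Clock and Nr1d1 in PyMT (0.01 and 0.27). Among the genes other than Arntl, the largest r was 0.81 for Per2 with Per3 in FVB, followed by 0.79 for Nr1d2 with Dbp. In PyMT it was 0.68 for Per3 with Nr1d2, a description over 12 libraries that share depth and tissue makeup.

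**Figure D4:**
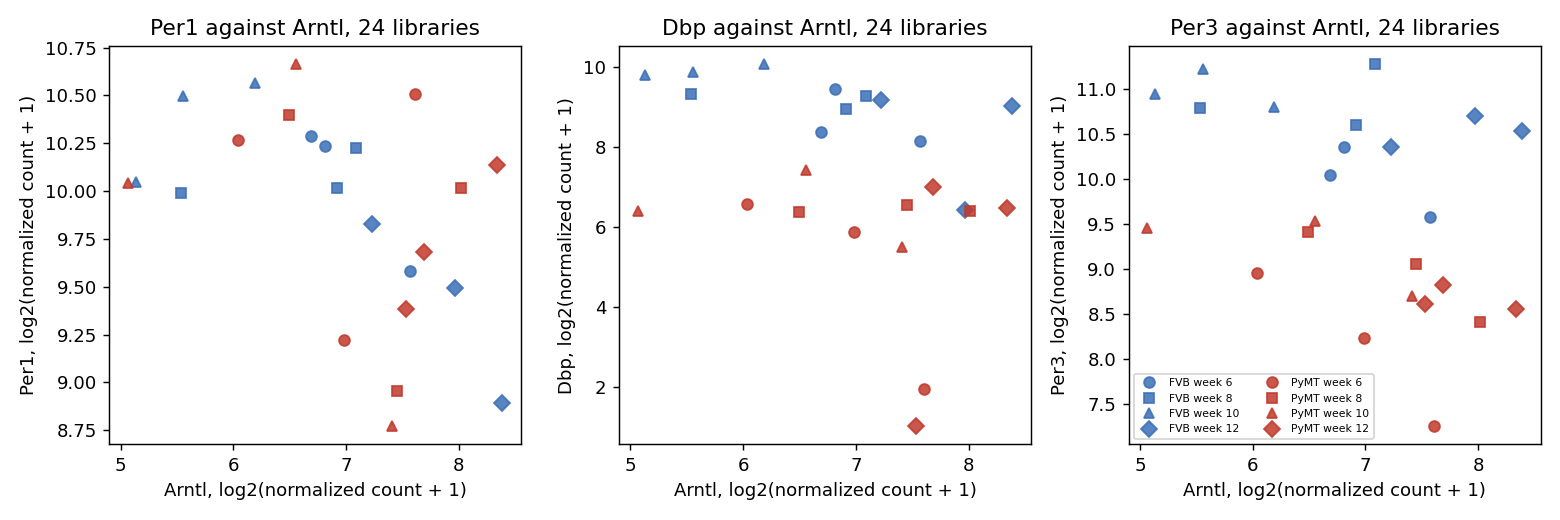
Per1, Dbp and Per3 on the y axes against Arntl on the x axes, all as log2(normalized count + 1), for 24 libraries with FVB in blue, PyMT in red and a symbol for each week. FVB libraries of week 10 sit at low Arntl and those of week 12 at high Arntl, and within PyMT the libraries with more Arntl had less Per3 (r = -0.57).

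Other genes of the clock pathway were read from lists chosen for their known role. Of 9 further clock-related genes, mostly transcription factors, 1 (Timeless) was higher and 1 (Rora) lower in PyMT over all weeks and 7 did not pass. Of all genes, 51.1% passed (23.6% higher, 27.5% lower). The median log2 fold change of the 9 genes was 0.20, beside -0.03 over all genes. The counts of the lists that follow are also to be read against these shares. Timeless is in the co-expression module that the paper found enriched for DNA replication and cell cycle. Npas2, which can stand in for Clock, was at 73.4 normalized counts in FVB and 79.5 in PyMT (log2 fold change 0.20 ± 0.47). Rora, the ROR receptor that activates Arntl, fell from 1108 to 684 (log2 fold change -0.68 ± 0.11, edgeR quasi-likelihood test, Benjamini-Hochberg adjusted p = 1.3e-05). Ciart, a repressor of the Clock and Arntl pair, was low in both, at 22.3 and 8.23, and did not pass (log2 fold change -1.29 ± 0.82).

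The relatives of Dbp moved in both directions. Tef, which also binds D-boxes, was at 990 to 2431 normalized counts in FVB and 197 to 1005 in PyMT, with a log2 fold change of -1.75 ± 0.22 (edgeR quasi-likelihood test, Benjamini-Hochberg adjusted p = 3.1e-07), and it passed at weeks 8, 10 and 12. Hlf, the third PAR bZIP gene, was higher in PyMT, at 369 to 836 beside 214 to 510, with a log2 fold change of 1.01 ± 0.14 (edgeR quasi-likelihood test, Benjamini-Hochberg adjusted p = 2.6e-06), and it passed at weeks 6 and 12. Nfil3, which represses at D-boxes, was lower, at 49.0 against 85.5 (log2 fold change -0.71 ± 0.26, edgeR quasi-likelihood test, Benjamini-Hochberg adjusted p = 0.0228). Dbp and Tef were thus lower and Hlf higher over the same libraries.

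Of 4 rhythmic output genes, 1 was higher (Wee1) and 3 were lower (Ppara, Por and Nampt). Por, the cytochrome P450 reductase gene, was at 2266 normalized counts in FVB and 413 in PyMT (log2 fold change -2.46 ± 0.21, edgeR quasi-likelihood test, Benjamini-Hochberg adjusted p = 1.0e-09), and Ppara, a lipid-sensing nuclear receptor gene, at 281 and 35.0 (log2 fold change -3.49 ± 0.63). Of 5 glucocorticoid-responsive genes 2 were lower and 3 did not pass, the lower ones being Zbtb16 (log2 fold change -2.54 ± 0.45) and Klf9 (-1.35 ± 0.18). Of 6 immediate early genes 2 were higher (Fos and Ier2), 1 was lower (Dusp1, a phosphatase gene, -1.34 ± 0.25) and 3 did not pass. The last 2 lists had 2 of 5 and 3 of 6 genes past the test, no larger a share than the 51.1% of all genes.

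Markers of several cell types also differed between PyMT and FVB. All 8 adipocyte markers passed the test as lower in PyMT, and their summed level ran from 80249 to 191784 normalized counts in FVB and from 1876 to 19095 in PyMT, with no marker at 0 in any library. Of 7 mammary epithelium markers 6 were higher and 1 was lower. Of 4 basal markers 0 were higher and 1 was lower, with sums of 1879 to 7626 and 946 to 5033. The 7 skeletal muscle markers were all lower (77.5 to 585318 in FVB and 0 to 32817 in PyMT), and 4 FVB libraries were above a sum of 100000. The 3 endothelial markers were all lower (2922 to 6111 and 498 to 1429). Of 4 macrophage markers 2 were lower (1711 to 4159 and 1467 to 2908). The 4 lymphocyte markers were under the count minimum, with sums of at most 24.4 and 45.1. The part of these cell types in the clock gene differences was not tested.

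Within a genotype, the summed adipocyte, epithelium and muscle markers were related to each of the 10 genes, 60 relations in all, none of which passed the adjustment. For Nr1d1, r with the adipocyte sum was 0.68 in FVB (two-sided permutation test with 100000 resamples, p = 0.016, adjusted p = 0.167) and 0.74 in PyMT (p = 0.0051, adjusted p = 0.102), with rho of 0.63 (permutation p = 0.0324, adjusted p = 0.389) and 0.60 (p = 0.0441, adjusted p = 0.422). Without the 2 libraries farthest from the median of the marker sum, r was 0.53 and 0.45. With the epithelium sum r was -0.67 in FVB (permutation p = 0.0179, adjusted p = 0.167) and -0.71 in PyMT (permutation p = 0.0194, adjusted p = 0.167). The rho values were -0.75 and -0.43 (permutation adjusted p = 0.106 and 0.578). Without the 2 farthest libraries r was -0.69 and 0.08, so that in PyMT it rests on those libraries. By r, Nr1d2 with the epithelium sum in FVB came nearest to the threshold (r = -0.83, permutation p = 0.00088, adjusted p = 0.0528, rho = -0.80 with adjusted p = 0.0729, r = -0.71 without the 2 farthest). By rho, Clock with the epithelium sum in PyMT was as near, with the opposite sign (rho = 0.82, permutation adjusted p = 0.0729). Its r was 0.65 (permutation adjusted p = 0.261). Dbp with the epithelium sum in FVB had r = -0.75 (permutation p = 0.0039, adjusted p = 0.102) and rho = -0.76 (permutation adjusted p = 0.106). For Dbp r was -0.46 in FVB without the 2 farthest libraries, and -0.08 in PyMT. The marker relations were not computed on deviations from week means.

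**Figure D5:**
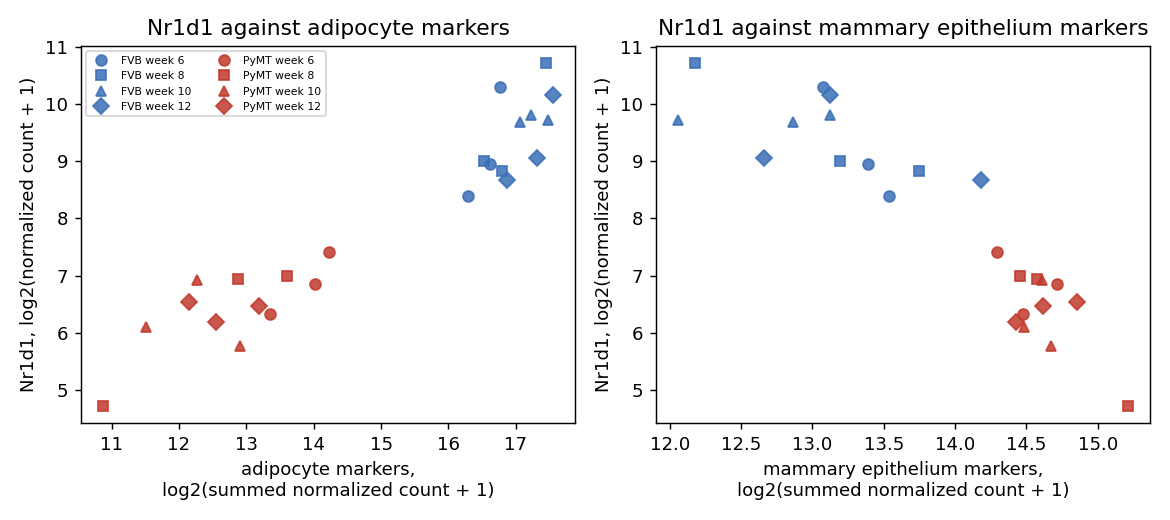
Nr1d1 on the y axis against the summed adipocyte markers (left) and the summed mammary epithelium markers (right) on the x axes, as log2(normalized count + 1) and log2(summed normalized count + 1), in 24 libraries. FVB (blue) and PyMT (red) form separate clusters in both panels, and the PyMT library with the least Nr1d1, replicate 2 of week 8 at 25.3 normalized counts, has the lowest adipocyte and the highest epithelium sum.

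The all-weeks fit was repeated without libraries that stood apart, an alternative added after the data had been seen. Without the 13 libraries with packets, 6 PyMT and 5 FVB libraries were left. Only weeks 8 and 12 then have both genotypes, and with week as a factor the genotype term rests on these 2 weeks. In this fit 5 of the 10 genes passed. These were Nr1d1 (log2 fold change -2.74), Dbp (-2.36), Per3 (-1.74), Cry2 (-1.32) and Nr1d2 (-0.73), while Per2 (-1.12), Clock (-0.34) and Cry1 (0.45) no longer passed (edgeR quasi-likelihood test, Benjamini-Hochberg adjusted p = 0.0642, 0.0678 and 0.288). Rora, Ppara and Nfil3 also no longer passed there (adjusted p = 0.0508, 0.0546 and 0.156 in the same test). Without the 4 FVB libraries high in muscle markers, 7 of the 10 genes passed, Cry1 being lost (adjusted p = 0.193 in the same test) as was Nfil3 (adjusted p = 0.258), and the log2 fold change was -3.07 for Nr1d1, -2.69 for Dbp and -1.80 for Per3. How many of all genes passed was not counted in either fit. The part of having fewer libraries in the lost calls was not tested.

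The genes whose libraries deviated most like those of Arntl from their genotype and week means, among 10378 genes with a mean of at least 100 normalized counts, were Fig4 (r = 0.83 over 24 libraries), 2810422J05Rik (0.77), Gm5526 (0.77), Pofut2 (0.76) and Ftsj1 (0.74). Those most like Dbp were Fam188b (0.84), Ggnbp2 (0.81), Fbxw17 (0.77), Slc7a6 (0.77) and Tef (0.75), its relative. They are the highest of many correlations and are given as a description.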

How the data were processed

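Ribosome-depleted RNA of 24 mammary samples was sequenced, and samples were grouped by genotype and week from their labels, 3 to a group. The deposited values are raw gene counts, which the authors made with HTSeq from adapter-trimmed reads that GSNAP had placed on mm9, without normalization. Symbols and mm9 coordinates were taken from GENCODE M1, which has a model for 37205 of the 37991 genes. Every column of the table belonged to a sample of the series. Replicate pairs differed far beyond sampling noise (chi-square per gene from 19.6 to 222.6 over 24 pairs).

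Genes with at least 1 CPM in at least 12 samples were tested with edgeR 4.0.16 in R 4.3.3 (TMM, glmQLFit, glmQLFTest), PyMT against FVB at each week in fits of 6 libraries, over all weeks with week as a factor, and across weeks in 8 groups. Normalized counts used size factors of DESeq2 1.42.0, and 1 was added before log2. The standard error is the log2 fold change over the square root of F. Marker sums, correlations and promoter searches used Python 3.11.15 with SciPy 1.17.1. The fits were also run on simulated counts that had no packets and far fewer changed genes than the data, so that run does not cover these features. The alternatives were edgeR's exact test, DESeq2, RLE or total-count scaling, no filter on low counts, a shared fit, a replicate block, division by packet size, limma 3.58.1 voom with sample weights, and each library left out in turn. Packet size is the tallest local peak, at 5 counts or more, in the smoothed number of genes by count. It had to be at least 1.2 times the lowest value before it. All 10 clock genes are named. From the pathway lists, the 8 genes with the smallest adjusted p over all weeks were to be named, plus Npas2, Ciart, Tef, Hlf and Nfil3, and members of counts of 5 or fewer are named besides, chosen after their values were seen. The members, lists and tests were chosen with earlier results of these data known. One list of pathway genes is not reported here.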

Additional observations from a re-analysis of the deposited data

How the results depend on the processing

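Nr1d1, Dbp, Per3, Cry2 and Nr1d2 kept their direction and passed over all weeks in each of 33 alternatives, with log2 fold changes from -3.14 to -2.71, -3.10 to -2.36, -1.89 to -1.50, -1.32 to -0.71 and -0.96 to -0.54. The number of clock genes that passed was 1 at week 6 with a replicate block (3 without), 3 at week 12 with total-count scaling (5 with TMM) and 5 over all weeks without libraries with packets (8 with them). Of all 14918 genes, 1251 passed at week 6 with the block (1772 without) and 4700 at week 12 with total-count scaling (4143 with TMM). All genes were not counted in the fits that left libraries out, so those counts of clock genes have no share beside them. Leaving out each library in turn gave 0 to 3 genes at week 6, 3 to 4 at week 8, 3 to 5 at weeks 10 and 12, 7 to 8 over all weeks and 0 to 0 in the tests across weeks. With counts divided by packet size, 1 relation of Arntl passed, that with Per1 in FVB (r = -0.76, permutation test, adjusted p = 0.0473).

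The values that reversed were these. Arntl at week 6 (-0.06) became 0.19 with total-count scaling, 0.058 with packet division and 0.069 with voom, and ran from -0.46 to 0.30 without single libraries. At week 12 (0.01) it became -0.019 with DESeq2, -0.018 with RLE scaling and -0.017 with the shared fit, and -0.29 to 0.31 without single libraries. Per1 at week 6 (0.02) became -0.036 with the block, -0.031 with packet division and -0.15 with voom, and -0.20 to 0.37 without single libraries. At week 8 (-0.17) it became 0.080 with total-count scaling. Over all weeks (-0.04) it became 0.26 with total-count scaling and 0.15 without libraries with packets. Without single libraries the bounds for Per1 were -0.47 and 0.13 at week 8, -0.83 and 0.044 at week 10, and -0.11 and 0.076 over all weeks, and those for Cry1 were -0.14 and 0.54 at week 8. Npas2 became -0.37 without libraries with packets and -0.11 without FVB libraries high in muscle markers. With Arntl on deviations from week means, r became -0.17 for Clock and -0.30 for Cry2 in FVB and -0.056 for Clock in PyMT, which was -0.14 without the 2 farthest libraries. The cause was not tested.

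Same-numbered PyMT and FVB samples correlated by -0.03 to 0.18 in their deviations, over 0.1 in 4 of 12 pairs. For 6 of the 12 PyMT samples, the same-numbered FVB sample of that week correlated best. The labels do not say what same-numbered samples share, and correlations of deviations within 3 samples a group cannot decide it. The block changed the calls of Cry2 and Nr1d1 at week 6, Nr1d2 at week 12 and Cry1 over all weeks (adjusted p = 0.0517, edgeR) and left the counts at 4, 4, 4 and 7 at weeks 8, 10, 12 and over all weeks. Single weeks rest on 3 libraries a group, and 13 libraries had packets, whose part in the spread was not tested. The hour of collection is not known.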
